A study of Mus musculus with 14 samples.

Results

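The RNA of 41 antioxidant and glutathione genes was examined in bulk heart tissue of irradiated and non-irradiated mice. The members were the rows of the gene count table whose symbol was on a list of superoxide dismutases, peroxidases, genes of the thioredoxin and glutathione systems, targets of the transcription factor NRF2, metallothioneins and ferritins. All 41 symbols were found among the 54532 genes of the table, and all 41 were among the 16034 genes that passed the filter on low counts and were tested. Membership rested on the symbol and not on a level or a fold change, although the list was drawn up with earlier results of these data known. No member was called as a differentially expressed gene (DEG) in any comparison by edgeR, the main test, which called 0.256% of all genes at 6 weeks, and DESeq2 on the 6-week groups alone called 1 (Hmox1), beside 1.27% of all genes. The members with the smallest p-values at 6 weeks were Ftl1, the ferritin light chain, and Gclm, a subunit of the rate-limiting enzyme of glutathione synthesis, both with higher means after irradiation.

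The study addressed radiation-induced heart disease (RIHD), the cardiac damage that can follow radiotherapy of the chest. Male wild-type C57BL/6J mice were 8 weeks old at the start, and the irradiated animals received 30 Gy of cobalt gamma rays to the anterior chest under pentobarbital anesthesia, with lead shielding of the rest of the body. Hearts were collected 1 day later (IRR_1d, n = 3) or 6 weeks later (IRR_6w, n = 4). Non-irradiated mice were taken at the same times (Control_1d, n = 3, and Control_6w, n = 4). The labels and methods do not say whether the non-irradiated mice were anesthetized. Each of the 14 libraries came from 1 mouse. All animals were male and of a single inbred strain. C57BL/6J mice carry a deletion in Nnt, a mitochondrial enzyme that supplies NADPH to the antioxidant systems described here. The symbol Nnt stood on 2 rows of the gene count table. The first of these rows had between 0 and 38 counts in the 14 libraries. The other row was not examined, which limits what these counts can mean. Because whole tissue was sequenced, fewer cells of a type and less RNA per cell cannot be told apart.

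Ionizing radiation splits water and leaves superoxide, hydrogen peroxide and hydroxyl radicals. Superoxide dismutases turn superoxide into hydrogen peroxide, which catalase, glutathione peroxidases and peroxiredoxins reduce to water. The reducing power comes from glutathione and thioredoxin, which are recharged by reductases that spend NADPH. Metallothioneins bind metal ions, and ferritin stores iron in a form that cannot drive radical chemistry. Many of these genes are switched on by NRF2, which KEAP1 holds in the cytosol and sends for degradation until oxidants or electrophiles modify it; NRF2 then binds the antioxidant response element (ARE) in promoters. The heart is rich in mitochondria and depends on mitochondrial dismutase, peroxiredoxin and thioredoxin.

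Sequences upstream of 3 members are shown because these are the genes with the smallest p-values in the comparisons of IRR_6w or in the change of the irradiation effect. Each is the 250 bases before a RefSeq transcription start in GRCm38.p6, written 5′ to 3′ on the strand of the gene, and capitals mark a match to the core letters TGACNNNGC of the ARE on either strand. The Gclm sequence is chr3:122245307-122245556 on the + strand, the Txnrd1 sequence is chr10:82858956-82859205 on the + strand and the Ftl1 sequence is chr7:45459887-45460136 on the - strand.
Gclm: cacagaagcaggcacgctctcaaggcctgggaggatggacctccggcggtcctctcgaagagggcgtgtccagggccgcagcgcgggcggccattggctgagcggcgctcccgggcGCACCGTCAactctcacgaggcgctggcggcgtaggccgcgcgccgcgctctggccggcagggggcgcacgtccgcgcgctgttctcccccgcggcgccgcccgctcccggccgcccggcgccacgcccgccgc
Txnrd1: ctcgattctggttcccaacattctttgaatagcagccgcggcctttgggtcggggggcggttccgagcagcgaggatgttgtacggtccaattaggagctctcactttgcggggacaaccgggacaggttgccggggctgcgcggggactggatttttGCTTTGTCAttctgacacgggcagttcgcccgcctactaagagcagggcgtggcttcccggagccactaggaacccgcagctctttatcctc
Ftl1: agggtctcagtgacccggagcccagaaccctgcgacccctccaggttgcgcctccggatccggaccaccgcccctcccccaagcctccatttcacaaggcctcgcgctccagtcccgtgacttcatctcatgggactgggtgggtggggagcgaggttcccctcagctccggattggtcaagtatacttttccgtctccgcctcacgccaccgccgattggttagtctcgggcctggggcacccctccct
The match in Gclm begins 134 bases before the start and that in Txnrd1 begins 92 bases before the start, both on the strand opposite to the gene. Txnrd1 has 3 RefSeq starts in the table and 1 of them had the match. The Ftl1 window held none, which says only that these letters are not in this window. RefSeq promoters were found for 35 of the 41 members, and 6 of these 35 (17.1%) had a match in the same window, namely Gclm, Mt2, Nfe2l2, Prdx1, Sod1 and Txnrd1. The same letters occurred upstream of 11.5% of 27025 genes and in 10.2% of 32851 promoters. A match of these letters is a description of the sequence and not evidence of binding.

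The libraries held between 13336746 and 16837265 counts, of which the members took 0.481% to 0.95%. Levels below are CPM (counts relative to the library total, scaled by edgeR's TMM factors of 0.7264 to 1.252), unless FPKM (CPM per kilobase of the deposited gene length) is named. No cardiomyocyte marker was at 0 in any library, but their sums differed widely. They ran from 6356 CPM in Control_6w replicate 3 to 53320 CPM in Control_1d replicate 3. Median sums were 47730 CPM in Control_1d, 38560 CPM in IRR_1d, 38430 CPM in Control_6w and 23280 CPM in IRR_6w, with overlapping ranges. Libraries stood apart in several ways. Among genes with a mean of 2 to 5 CPM, 38.8% had 0 counts in Control_1d replicate 1, 29.7% in IRR_6w replicate 3, 14.2% in IRR_6w replicate 4 and 7.58% in Control_6w replicate 1, against 0.109% to 3.92% in the other libraries. Among genes with a mean over 20 CPM, the median level of those shorter than 1500 bases relative to those longer than 4000 bases, on the log2 scale around the mean of all libraries, was -0.575 in Control_1d replicate 1, -0.494 in IRR_6w replicate 3 and -0.86 in IRR_6w replicate 4, and lay between -0.178 and 0.531 in the others. Summed markers of white fat reached 2196 CPM in IRR_6w replicate 1, 581.9 CPM in IRR_1d replicate 3 and 540.9 CPM in Control_6w replicate 3, and at most 58.3 CPM in the other libraries. Atrial markers were highest in IRR_6w replicate 1 and IRR_1d replicate 3, and thymus markers reached 2750 CPM in Control_6w replicate 3 and at most 72.71 CPM elsewhere. Lung epithelium and liver markers were highest in IRR_6w replicate 1, at 357.1 and 459.2 CPM. Testis germ cell markers were at 44, 31.14 and 20.17 CPM in Control_6w replicates 1, 2 and 3, and at most 0.3011 CPM elsewhere. The part of these differences in the results below was not tested, beyond leaving the libraries out.

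On the FPKM scale, which allows levels of different genes to be compared, the 41 members spanned from below 0.1 to above 1000. Fth1, the ferritin heavy chain, was the highest member with a median of 1609 FPKM over the 14 libraries (range 944 to 2179). Its deposited length of 866 bases is shorter than the 3469 bases of its annotated exons in GENCODE M21, and with the latter the median was 402 FPKM, still the highest of the members. Gpx4, the glutathione peroxidase that reduces lipid peroxides, followed at 244 FPKM (95.5 to 340.5), and Prdx3, the mitochondrial peroxiredoxin, at 202 FPKM (153 to 334). The ranges of Gpx4 and Prdx3 over libraries overlapped, so their order is not beyond the spread. Gpx3, the secreted glutathione peroxidase, Ftl1, and Txnip, the inhibitor of thioredoxin, had medians of 161, 139 and 122 FPKM. At the low end were Gss, glutathione synthetase, at 1.87 FPKM, Mt2 at 2.16 FPKM and Slc7a11, the cystine transporter, which had 0 counts in 6 of the 14 libraries. Within groups, Prdx1 varied least (coefficient of variation 0.144), whereas Gpx3 (1.03) and Slc7a11 (3.33) varied most.

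**Figure D1:**
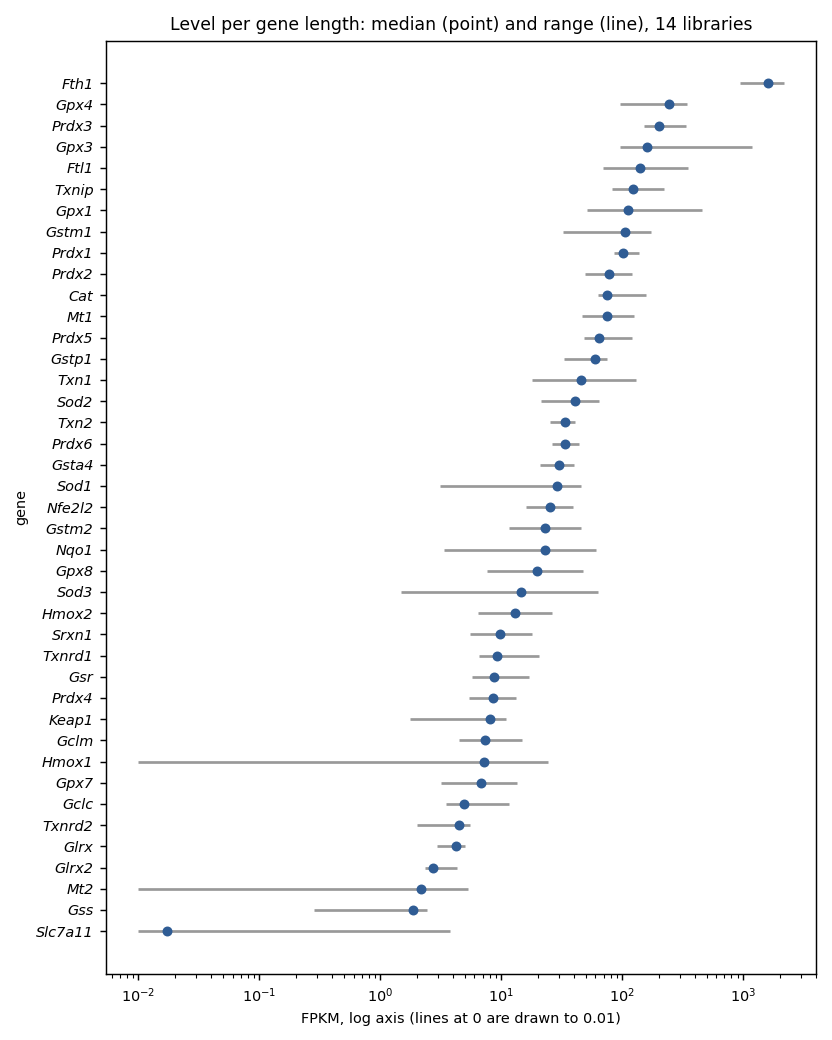
Median (point) and range (line) of FPKM over the 14 libraries for each of the 41 members, on a log axis and ordered by median. Fth1 lies above all other members in the median, and Slc7a11 is lowest.

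The comparison of IRR_1d with Control_1d asked how the acute response to irradiation touched these genes. A DEG had to differ by a fold over 2, or under 0.5, at an adjusted p (Benjamini-Hochberg, over the whole table) under 0.05 in edgeR's quasi-likelihood test. By this rule 0 of 41 members were called, beside 0.0249% of all genes tested (4 genes). At an unadjusted p under 0.05 it was also 0 of 41, beside 2.90% of all genes; without Control_1d replicate 3 it was 3 of 41 (beside 6.13%) and with library totals 2 (beside 3.27%). DESeq2 on all libraries, DESeq2 on these 2 groups alone and limma-voom called 0 members too, with 0, 3 and 4 members at an unadjusted p under 0.05, beside 2.62%, 3.72% and 4.46% of all genes in those fits. Log2 fold changes lay above 0 in 30 of the 41 members with a median of 0.189, and above 0 in 55.1% of all genes with a median of 0.062. The 95% interval lay within a 2-fold change in either direction for 17 of the 41 members, and for the other 24 a change of that size was not excluded by the interval.

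The comparison of IRR_6w with Control_6w asked the same for the chronic phase. Again 0 of 41 members were called by edgeR, beside 0.256% of all genes tested (41 genes, 0.237% higher and 0.0187% lower). At an unadjusted p under 0.05, 3 of 41 members were found (7.32%), Gclm and Ftl1 higher and Slc7a11 lower, beside 8.81% of all genes (5.43% higher and 3.37% lower). That count moved with single libraries, from 2 (with replicate 2 or 4 of Control_6w removed, or replicate 3 or 4 of IRR_6w, beside 6.65% to 8.29% of all genes) to 5 without IRR_6w replicate 1 (beside 9.5%) and 8 without Control_6w replicate 3 (beside 11.3%), and it was 7 with library totals (beside 10.3%) and 8 with the 3 libraries highest in white fat markers left out together (beside 10.5%). DESeq2 on all libraries and limma-voom called 0 members, each with 3 at an unadjusted p under 0.05 (beside 6.3% and 10.3% of all genes), whereas DESeq2 on these 2 groups alone called 1 member, Hmox1, beside 1.27% of all genes. Log2 fold changes lay above 0 in 17 members and below 0 in 24 with a median of -0.036, and above 0 in 43.8% of all genes with a median of -0.089. With library totals instead of TMM factors the median of all genes moved by 0.233 and 11 members changed sign, so that 28 of 41 members lay above 0, beside 60.3% of all genes. The interval lay within a 2-fold change in either direction for 18 members.

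**Figure D2:**
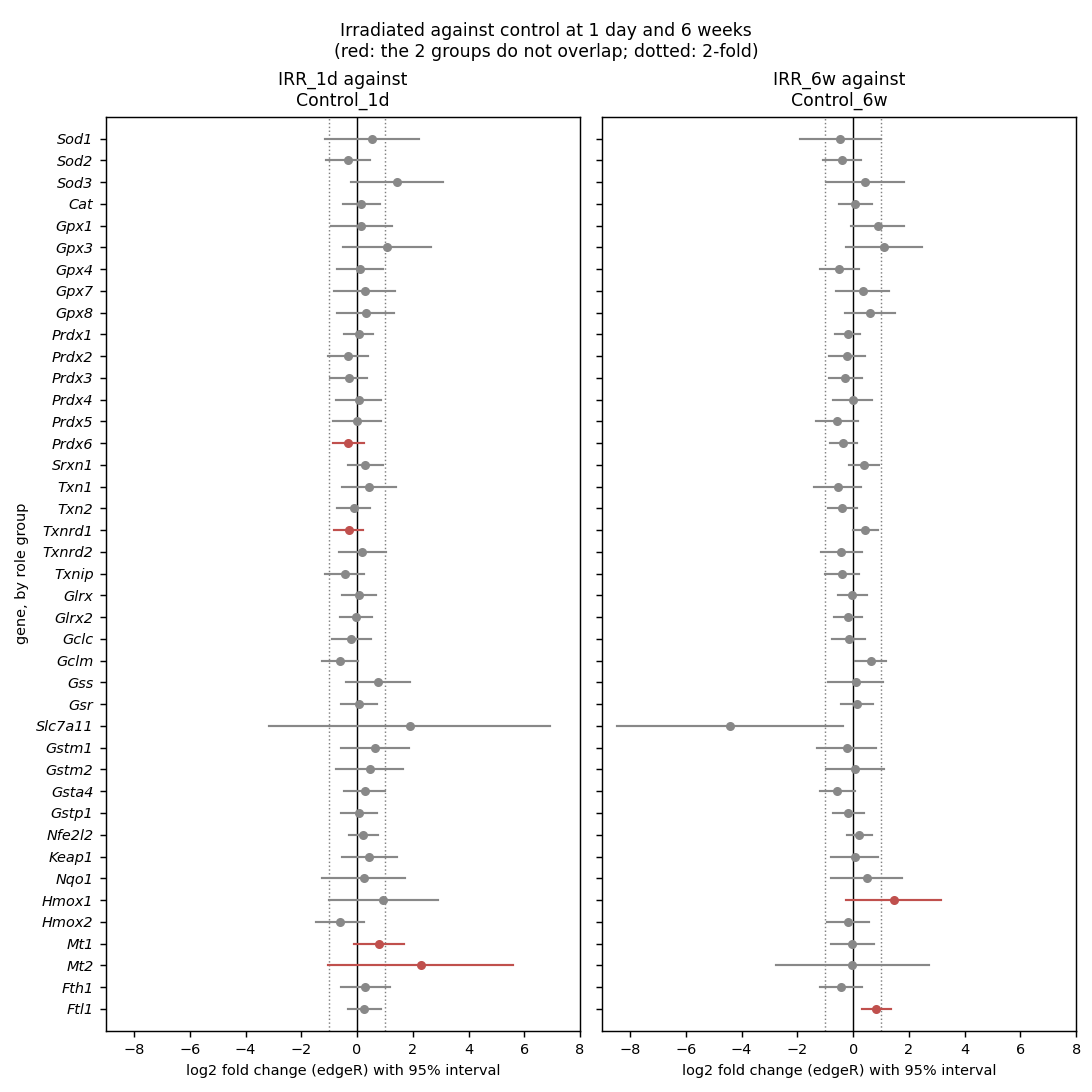
Log2 fold change of each member with its 95% interval from edgeR, in IRR_1d against Control_1d (left) and IRR_6w against Control_6w (right), grouped by role, with dotted lines at a 2-fold change and red for members whose groups do not overlap in TMM-scaled CPM. No member was called in either panel, and red marks Prdx6, Txnrd1, Mt1 and Mt2 at 1 day and Hmox1 and Ftl1 at 6 weeks.

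**Figure D3:**
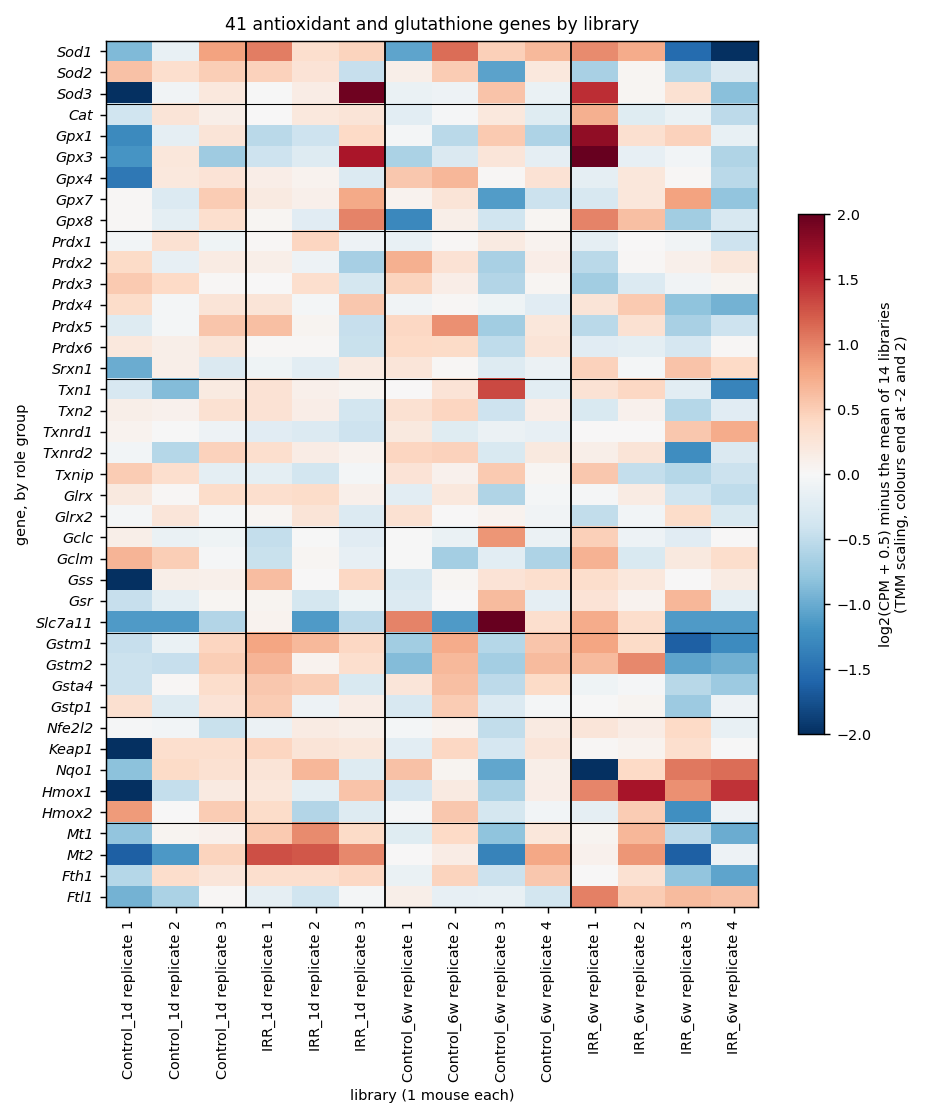
Log2 of CPM plus 0.5 of each member in each library minus its mean over the 14 libraries, rows ordered by role and columns by group, with colours ending at -2 and 2. Slc7a11 is highest in Control_6w replicate 3, Gpx3 in IRR_6w replicate 1, and several members with low values share Control_1d replicate 1.

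Of the superoxide dismutases, none of 3 was called at either time. Sod3, the extracellular form (ENSMUSG00000072941, chromosome 5, 52363791–52371418 of the mm10 build), was at 5.01, 55.8 and 67.2 CPM in Control_1d and 58.1, 64.8 and 226 CPM in IRR_1d. In the 6-week groups it was at 52.9, 54.0, 86.4 and 53.2 CPM in Control_6w and 164, 60.2, 72.0 and 32.5 CPM in IRR_6w. The low value in Control_1d belonged to replicate 1, the library with most genes at 0 counts, and the highest values belonged to IRR_1d replicate 3 and IRR_6w replicate 1, the libraries with high atrial and white fat markers; the groups overlapped. The log2 fold change at 1 day was 1.45 (SE 0.771, 95% interval -0.20 to 3.10, edgeR adjusted p = 1) and was 0.528 without IRR_1d replicate 3. Sod1, the cytosolic form, was at 38.1, 174, 112 and 126 CPM in Control_6w and 155, 135, 27.2 and 9.97 CPM in IRR_6w, with a fitted log2 fold change equal to -0.46 (SE 0.68, edgeR adjusted p = 0.886). Its 4 lowest libraries of all 14 were those with the most genes at 0 counts, and with Control_1d replicate 1 and IRR_6w replicates 3 and 4 left out the estimate at 6 weeks turned to 0.368. Sod2, the mitochondrial form, had log2 fold changes of -0.33 at 1 day and -0.39 at 6 weeks, and neither passed the test.

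The 6 genes of catalase and the glutathione peroxidases all had a log2 fold change above 0 at 1 day (median 0.21), and 5 of 6 did at 6 weeks (median 0.475), with none called. Gpx1, the abundant cytosolic peroxidase, was at 159, 113, 236 and 106 CPM in Control_6w and 557, 204, 226 and 148 CPM in IRR_6w, and at 67.0, 143 and 195 CPM in Control_1d and 113, 122 and 215 CPM in IRR_1d. Replicate 1 of IRR_6w was the highest of all, and the remaining IRR_6w values lay within the range of Control_6w. That library also had the highest sum of erythroid markers, 63080 CPM against 2112 to 33680 CPM in the others. For Gpx1 the log2 fold change was 0.89 (SE 0.444, 95% interval -0.065 to 1.84, edgeR adjusted p = 0.608) at 6 weeks and 0.92 (SE 0.487, 95% interval -0.12 to 1.96, edgeR adjusted p = 0.939) for IRR_6w against IRR_1d. Without IRR_6w replicate 1 these were 0.327 and 0.361.

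Gpx3, which was picked after its values were seen, had 229.6, 291, 422 and 315 CPM in Control_6w and 1820, 319, 345 and 236 CPM in IRR_6w. At 1 day it had 158, 418 and 219 CPM in Control_1d and 268, 299 and 1113 CPM in IRR_1d. A single library in each irradiated group was high, and these were the libraries with the highest sums of white fat markers. The log2 fold change at 6 weeks was 1.11 (SE 0.64, 95% interval -0.26 to 2.48, edgeR adjusted p = 0.673), and without IRR_6w replicate 1 it was -0.068. Gpx4 (ENSMUSG00000075706, chromosome 10, 80047166–80056439) was at 149, 464 and 486 CPM in Control_1d, 439, 419 and 331 CPM in IRR_1d, 583, 633, 407 and 489 CPM in Control_6w and 353, 468, 406 and 277 CPM in IRR_6w. The lowest of these was Control_1d replicate 1, and all 4 groups overlapped. A pseudogene copy of Gpx4 took 17478 counts over all libraries beside 86457 for Gpx4, so the split of reads between them is uncertain. Gpx4 had log2 fold changes of 0.11 at 1 day and -0.49 at 6 weeks. Catalase had a log2 fold change of 0.15 (SE 0.314, 95% interval -0.52 to 0.82, edgeR adjusted p = 1) at 1 day and 0.082 (SE 0.272, 95% interval -0.50 to 0.66, edgeR adjusted p = 0.956) at 6 weeks. In IRR_6w catalase was at 347, 179, 194 and 147 CPM, highest in replicate 1, the library with the highest white fat markers, against 183, 209, 246 and 179.8 CPM in Control_6w. Gpx7 and Gpx8, peroxidases of the endoplasmic reticulum, had log2 fold changes of 0.27 and 0.30 at 1 day and 0.35 and 0.60 at 6 weeks.

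None of the 7 genes of the peroxiredoxins and sulfiredoxin was called, and at 6 weeks 6 of 7 had a log2 fold change below 0 (median -0.22). This count depended on the scaling, since with library totals 3 of 7 lay below 0, and Prdx1, Prdx2 and Prdx4 turned above it; above 0 at 6 weeks were 43.8% of all genes with TMM and 60.3% with library totals. Prdx6, a peroxiredoxin that also acts on phospholipids, was at 189.7, 177 and 195 CPM in Control_1d and 167, 166 and 120.5 CPM in IRR_1d. Every irradiated value lay below every control value, but the difference was small, with a log2 fold change of -0.31 (SE 0.264, 95% interval -0.87 to 0.25, edgeR adjusted p = 1). Endothelial markers (7 genes, none at 0 in any library) were also lower without overlap at 1 day, at 1409 to 1695 CPM in Control_1d and 1029 to 1241 CPM in IRR_1d, and their part was not tested. At 6 weeks the Prdx6 values were 215, 214, 116 and 195 CPM in Control_6w and 139.7, 144, 130.1 and 167 CPM in IRR_6w, which overlapped. Prdx3, the most abundant peroxiredoxin on the FPKM scale, was at 448, 410.3 and 316 CPM in Control_1d, 313, 395 and 246 CPM in IRR_1d, 426, 342, 208 and 322 CPM in Control_6w and 192, 258, 298 and 323 CPM in IRR_6w. Its low values in replicate 3 of Control_6w and replicate 1 of IRR_6w were in the 2 libraries with the lowest sums of cardiomyocyte markers of the 6-week groups. For Prdx3 the log2 fold changes were -0.30 (SE 0.311, edgeR adjusted p = 1) at 1 day and -0.28 (SE 0.27, edgeR adjusted p = 0.822) at 6 weeks. The remaining members had log2 fold changes at 6 weeks of -0.19 for Prdx1, -0.22 for Prdx2, -0.018 for Prdx4 and -0.59 for Prdx5. Srxn1, the sulfiredoxin that repairs overoxidized peroxiredoxins, was above 0 at 6 weeks with both scalings, at 0.39 (SE 0.253, edgeR adjusted p = 0.718).

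In the thioredoxin and glutaredoxin system, 6 of 7 genes lay below 0 at 6 weeks with TMM (median -0.383), all but Txnrd1, and 4 of 7 with library totals, where Glrx and Glrx2 turned above it. Txnrd1 (ENSMUSG00000020250, chromosome 10, 82833951–82897712), the cytosolic selenoenzyme that reduces thioredoxin, was at 73.3, 69.5 and 64.7 CPM in Control_1d and 59.6, 57.5 and 52.1 CPM in IRR_1d. At 6 weeks it was at 80.2, 58.9, 64.1 and 62.5 CPM in Control_6w and 70.3, 70.2, 102 and 117 CPM in IRR_6w. At 1 day every irradiated value lay below every control value, as did the endothelial marker sums given above for Prdx6, and at 6 weeks replicates 3 and 4 of IRR_6w were above all others while replicates 1 and 2 lay within the range of Control_6w. Those replicates 3 and 4 were among the libraries with many genes at 0 counts and low levels of short genes, and the deposited length of Txnrd1 is 7086 bases; the part of length was not tested. The log2 fold change was -0.29 (SE 0.245, 95% interval -0.82 to 0.23, edgeR adjusted p = 1) at 1 day and 0.44 (SE 0.212, 95% interval -0.019 to 0.89, edgeR adjusted p = 0.594) at 6 weeks, and the latter was 0.084 with Control_1d replicate 1 and IRR_6w replicates 3 and 4 left out. Txn1, the cytosolic thioredoxin, was at 37.8, 25.8 and 53.9 CPM in Control_1d, 58.1, 50.7 and 49.2 CPM in IRR_1d, 48.0, 57.5, 119 and 40.8 CPM in Control_6w and 58.1, 63.7, 40.7 and 18.8 CPM in IRR_6w, with the highest value in Control_6w replicate 3 and overlap of all groups. Its log2 fold changes were 0.43 (SE 0.458, edgeR adjusted p = 1) at 1 day and -0.55 (SE 0.396, edgeR adjusted p = 0.75) at 6 weeks.

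Txnip was at 494, 430.5, 588 and 419 CPM in Control_6w and 591, 291, 273 and 301 CPM in IRR_6w. Of the 4 irradiated values, 3 lay below all controls, and IRR_6w replicate 1 lay above all of them. For Txnip the log2 fold change was -0.41 (SE 0.283, 95% interval -1.01 to 0.20, edgeR adjusted p = 0.74) at 6 weeks and -0.44 (SE 0.327, edgeR adjusted p = 1) at 1 day. Without IRR_6w replicate 1 the 6-week value was -0.743 (edgeR adjusted p = 0.315), and with Control_1d replicate 1 and IRR_6w replicates 3 and 4 left out it was -0.128. Mitochondrial thioredoxin Txn2 and its reductase Txnrd2 had log2 fold changes at 6 weeks of -0.38 and -0.42, and the glutaredoxins Glrx and Glrx2, which reduce disulfides with glutathione, had -0.034 and -0.17.

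For glutathione synthesis and recycling, Gclm gave the smallest p of any member at 1 day and was the only member of this group, beside Slc7a11, under an unadjusted p of 0.05 at 6 weeks. Gclm (ENSMUSG00000028124, chromosome 3, 122245557–122270732) encodes the modifier subunit that makes glutamate-cysteine ligase, the rate-limiting enzyme, more efficient. It was at 79.2, 69.4 and 48.1 CPM in Control_1d and 36.1, 50.2 and 43.5 CPM in IRR_1d. At 6 weeks it was at 49.0, 30.5, 42.2 and 31.7 CPM in Control_6w and 79.9, 39.6, 56.5 and 62.8 CPM in IRR_6w. Irradiated means were thus lower than control at 1 day (43.3 ± 7.06 against 65.6 ± 15.9 CPM, SD, n = 3 each) and higher at 6 weeks (59.7 ± 16.6 against 38.3 ± 8.87 CPM, SD, n = 4 each), with overlap at both times. Fitted log2 fold changes were -0.60 (SE 0.3, 95% interval -1.24 to 0.043, edgeR adjusted p = 1) at 1 day and 0.64 (SE 0.26, 95% interval 0.083 to 1.195, edgeR adjusted p = 0.474) at 6 weeks. Leaving out any library or changing the scaling or tool kept the sign at both times, with ranges of -0.75 to -0.438 at 1 day and 0.468 to 0.874 at 6 weeks. The highest Gclm value of Control_1d was in replicate 1, the library with most genes at 0 counts. That of IRR_6w was in replicate 1, the library with the highest white fat markers. Macrophage and monocyte markers and fibroblast markers, given below for Hmox1, also separated the 6-week groups, and their part was not tested. Gclc, the catalytic subunit of glutamate-cysteine ligase, had log2 fold changes of -0.20 (SE 0.323, edgeR adjusted p = 1) and -0.16 (SE 0.279, edgeR adjusted p = 0.905). Its 6-week value lay above 0 with library totals. Control_6w replicate 3 was at 37.43 CPM for Gclc, against 18.37 to 20.02 CPM in the other Control_6w libraries.

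Slc7a11, which brings in the cystine for glutathione, was close to absent in this tissue except in a single library. It had 0, 0 and 3 counts in Control_1d, 10, 0 and 4 in IRR_1d, 22, 0, 798 and 13 in Control_6w and 23, 15, 0 and 0 in IRR_6w. Replicate 3 of Control_6w held most of the counts of the series. The fitted log2 fold change equal to -4.42 (SE 1.89, edgeR adjusted p = 0.507) at 6 weeks rested on that library and was -0.609 without it. That library also had thymus markers at 2750 CPM, and their part in the value was not tested. Gss and Gsr, the reductase that regenerates glutathione, had log2 fold changes of 0.76 and 0.075 at 1 day and 0.087 and 0.15 at 6 weeks.

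All 4 glutathione S-transferases, which couple glutathione to electrophiles, lay above 0 at 1 day (median 0.365), 3 of 4 lay below 0 at 6 weeks with TMM (median -0.199) and 1 of 4, Gsta4, with library totals, and none was called. Gsta4, which detoxifies the lipid aldehyde 4-hydroxynonenal, was at 26.1, 36.1 and 45.1 CPM in Control_1d, 51.6, 50.04 and 28.5 CPM in IRR_1d, 42.1, 54.2, 24.6 and 46.1 CPM in Control_6w and 33.1, 34.9, 23.8 and 21.2 CPM in IRR_6w. All IRR_6w values lay at or below 34.9 CPM, and the groups overlapped pairwise. Its log2 fold changes were 0.28 (SE 0.341, edgeR adjusted p = 1) at 1 day and -0.56 (SE 0.296, edgeR adjusted p = 0.631) at 6 weeks. Gstm1 was at 77.1, 211, 84.4 and 185 CPM in Control_6w and 218, 165, 40.3 and 52.5 CPM in IRR_6w, the lowest values being replicates 3 and 4 of IRR_6w. Its log2 fold change at 6 weeks, -0.23 (SE 0.491, edgeR adjusted p = 0.926), was 0.46 without Control_1d replicate 1 and these 2 libraries. Gstm2 and Gstp1 had 0.067 and -0.17 at 6 weeks. Some of these genes have close relatives, between which the counting may split reads, and this was not tested.

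Among NRF2, KEAP1 and inducible enzymes, Hmox1, which breaks down heme into biliverdin, carbon monoxide and iron, was the member with non-overlapping groups at 6 weeks together with Ftl1. Hmox1 (ENSMUSG00000005413, chromosome 8, 75093621–75100589) was at 9.52, 13.9, 7.69 and 13.4 CPM in Control_6w and 24.6, 39.4, 23.5 and 34.2 CPM in IRR_6w. At 1 day it was at 0, 8.66 and 13.9 CPM in Control_1d, where the value of 0 belonged to the library with most genes at 0 counts, and 14.4, 10.6 and 18.4 CPM in IRR_1d. All 4 IRR_6w values lay above all values of the other 3 groups. The log2 fold change at 6 weeks was 1.45 (SE 0.795, 95% interval -0.25 to 3.15, edgeR adjusted p = 0.646). That fit took its spread from all 4 groups, including the 1-day libraries. DESeq2 on the 2 groups of 6 weeks alone gave 1.45 (SE 0.339, DESeq2 adjusted p = 0.00207). What made the SE of the 2 fits differ was not tested. The sign held in every alternative, with values from 1.30 to 1.71. Summed macrophage and monocyte markers (8 genes, none at 0 in any library) were also without overlap, at 162.2 to 366.3 CPM in Control_6w and 536.2 to 810.7 CPM in IRR_6w, and their part in the Hmox1 value was not tested. At 1 day these markers were at 306.6 to 363.6 CPM in Control_1d and 340.4 to 461.5 CPM in IRR_1d. Fibroblast markers (7 genes, none at 0) did not overlap at 6 weeks either, at 929.9 to 2188 CPM in Control_6w and 2334 to 3335 CPM in IRR_6w, and their part was not tested.

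Nfe2l2, which encodes NRF2 itself, and Keap1 had log2 fold changes at 6 weeks of 0.23 (SE 0.212, edgeR adjusted p = 0.811) and 0.053 (SE 0.394, edgeR adjusted p = 0.981). Nqo1, a quinone reductase used as a marker of NRF2 activity, was at 51.8, 35.5, 16.4 and 37.1 CPM in Control_6w and 4.43, 45.4, 72.2 and 74.7 CPM in IRR_6w. Replicates 3 and 4 of IRR_6w were the highest and replicate 1 was the lowest of the 8, so the groups overlapped. Its log2 fold change was 0.48 (SE 0.598, edgeR adjusted p = 0.864), and with Control_1d replicate 1 and IRR_6w replicates 3 and 4 left out it was -0.494. Hmox2, the constitutive heme oxygenase, was at 52.5, 29.1 and 41.1 CPM in Control_1d, 37.2, 19.0 and 24.1 CPM in IRR_1d, 28.4, 42.2, 22.5 and 27.8 CPM in Control_6w and 25.5, 41.1, 12.0 and 26.8 CPM in IRR_6w, with overlap of all groups. Its log2 fold changes were -0.61 (SE 0.407, edgeR adjusted p = 1) at 1 day and -0.20 (SE 0.352, edgeR adjusted p = 0.908) at 6 weeks. Hmox2 lay above 0 at 6 weeks with library totals. Of its exonic bases 40.2% overlap a gene on the opposite strand, and whether counting used strand is not given in the sources used here.

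The metallothioneins and ferritins all lay above 0 at 1 day (4 of 4, median 0.547), also with library totals, beside 55.1% of all genes with TMM and 59.8% with library totals. Mt1, the metallothionein with the higher level, was at 53.7, 97.0 and 98.6 CPM in Control_1d and 133, 179 and 122 CPM in IRR_1d, without overlap, and at 78.5, 123, 53.1 and 109 CPM in Control_6w and 96.1, 148, 64.5 and 46.6 CPM in IRR_6w, with overlap. Its log2 fold change was 0.80 (SE 0.42, 95% interval -0.10 to 1.70, edgeR adjusted p = 1) at 1 day and -0.036 (SE 0.361, edgeR adjusted p = 0.985) at 6 weeks. Mt2 was covered by few counts, 0, 2 and 21 in Control_1d and 51, 37 and 38 in IRR_1d. Irradiated counts were again above control counts in every library, with a fitted log2 fold change of 2.29 (SE 1.55, 95% interval -1.04 to 5.61, edgeR adjusted p = 1). The fit gave 4.93 without Control_1d replicate 3, which held most of the control counts, and 1.695 without Control_1d replicate 1. Of the exonic bases of Mt2, 73.5% overlap a gene on the opposite strand. Non-overlapping groups with irradiated higher were thus found at 1 day for 2 of 41 members (4.88%, Mt1 and Mt2), beside 6.52% of all genes, and with irradiated lower for 2 of 41 (Prdx6 and Txnrd1), beside 4.14% of all genes. The separation of Prdx6 and Txnrd1 depended on the scaling: with library totals instead of TMM factors both overlapped, Mt1 and Mt2 still did not, and Gstm1 was also higher without overlap (3 of 41 higher and 0 lower, beside 7.28% and 1.97% of all genes with that scaling).

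Ftl1 (ENSMUSG00000050708, chromosome 7, 45457944–45459884) was at 213, 175, 177 and 153 CPM in Control_6w and 398, 280.2, 306 and 295 CPM in IRR_6w. At 1 day it was at 102, 127 and 199 CPM in Control_1d and 174, 149 and 191 CPM in IRR_1d, which overlapped. All 4 IRR_6w values lay above all 10 values of the other groups, and the mean at 6 weeks was 319.7 ± 52.95 CPM against 179.5 ± 25.1 CPM (SD, n = 4 each). The log2 fold change at 6 weeks was 0.83 (SE 0.241, 95% interval 0.32 to 1.35, edgeR adjusted p = 0.202), the smallest adjusted p of any member in this comparison. DESeq2 on all libraries gave an adjusted p of 0.0361 for it, with a fold under the limit of 2. The values over the alternatives ran from 0.703 to 1.07 on the log2 scale. The macrophage and monocyte markers and the fibroblast markers given above for Hmox1 also separated the 6-week groups, and their part was not tested. The macrophage and monocyte sums were 536.2, 771.4, 738 and 810.7 CPM in replicates 1, 2, 3 and 4 of IRR_6w. Of the exonic bases of Ftl1, 34.6% overlap other genes, and 2 named pseudogenes took 867 counts beside 45839 for Ftl1. Non-overlapping groups with irradiated higher at 6 weeks were found for 2 of 41 members (4.88%), beside 4.08% of all genes, and with irradiated lower for 0 of 41, beside 1.64%. With library totals Nfe2l2 joined Ftl1 and Hmox1, and no member was lower without overlap (3 and 0 of 41, beside 6.63% and 0.493% of all genes with that scaling).

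Fth1, the partner subunit in the ferritin shell, was at 1232, 1840, 1009 and 1968 CPM in Control_6w and 1369, 1675, 782 and 654 CPM in IRR_6w, with log2 fold changes of -0.43 (SE 0.357, edgeR adjusted p = 0.782) at 6 weeks and 0.30 (SE 0.412, edgeR adjusted p = 1) at 1 day. In the 1-day groups it was at 916, 1736 and 1610 CPM in Control_1d and 1719, 1707 and 1810 CPM in IRR_1d. Values for IRR_6w replicates 3 and 4, 782.1 and 653.7 CPM, were the lowest of the series. Both were libraries with many genes at 0 counts and low levels of short genes, and the part of the deposited length of 866 bases was not tested.

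**Figure D4:**
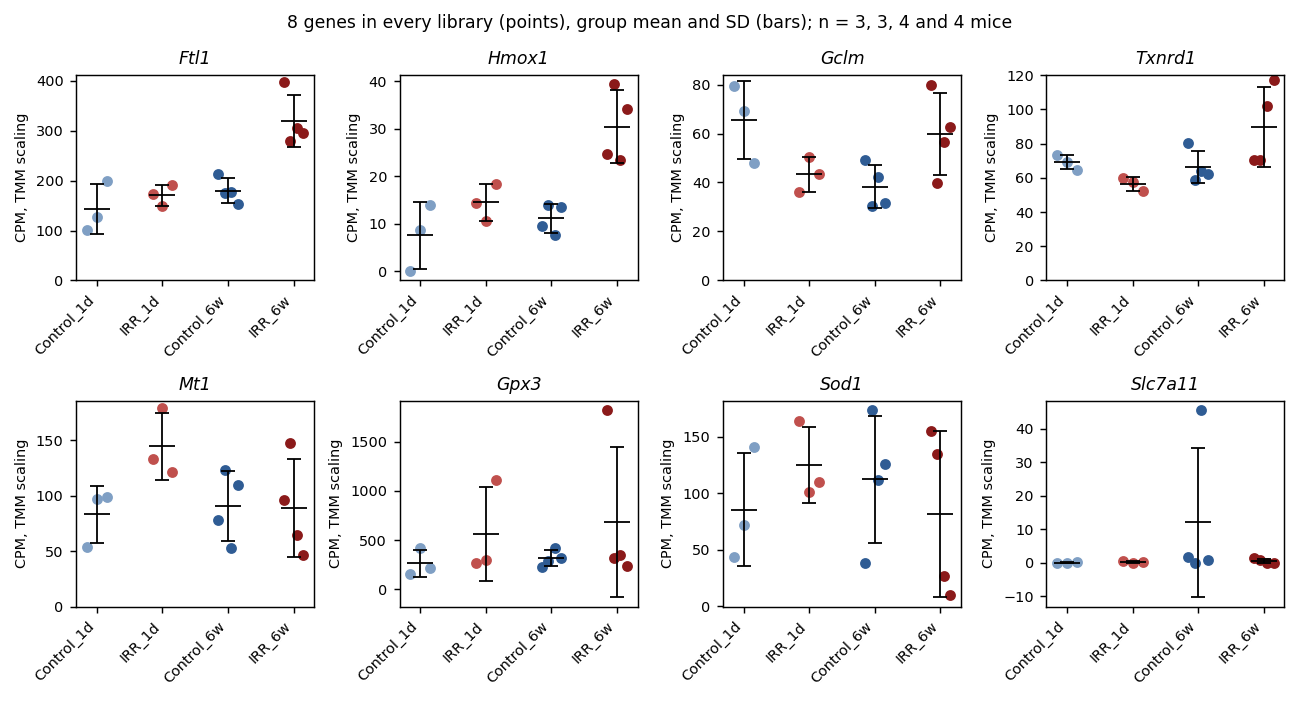
CPM with TMM scaling of selected members in each library (points) with the mean and SD of each group (bars), 1 panel per gene. Ftl1 and Hmox1 in IRR_6w lie above all other libraries, Gpx3 is high in IRR_6w replicate 1 and Slc7a11 in Control_6w replicate 3.

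The controls of the 2 times were compared to see how far the members differ without irradiation. For Control_6w against Control_1d, 0 of 41 members were called by edgeR, beside 0.00% of all genes, and DESeq2 on all libraries, DESeq2 on the 2 groups alone and limma-voom called 0 members as well. At an unadjusted p under 0.05 there were 2 of 41 by edgeR (Gclm lower, Slc7a11 higher), beside 5.28% of all genes (3.54% higher and 1.75% lower), 1 by each DESeq2 fit (beside 4.31% on all libraries and 3.25% on the 2 groups) and 2 by limma-voom (beside 6.27%). With single libraries left out edgeR gave 1 (without Control_1d replicate 1 or Control_6w replicate 3) to 3 (without Control_1d replicate 3), beside 2.5%, 3.83% and 8.66% of all genes. Gclm had a log2 fold change of -0.77 (SE 0.278, 95% interval -1.37 to -0.18, edgeR adjusted p = 0.902), a size no smaller than that of either irradiation comparison of this gene. Txn1 and Gpx4 followed in the order of p, with 0.76 (SE 0.435, edgeR adjusted p = 0.902) and 0.53 (SE 0.361, edgeR adjusted p = 0.906). Txn1 was 0.314 without Control_6w replicate 3, and Gpx4 was 0.152 without Control_1d replicate 1 and 0.80 without Control_1d replicate 3. For Slc7a11 the fitted value of 7.13 (SE 2.55, edgeR adjusted p = 0.902) was 3.32 without Control_6w replicate 3; with so few counts in Control_1d these fitted values give no bound on the fold. No member had non-overlapping groups in either direction, beside 3.39% of all genes higher and 2.53% lower, whereas with library totals Gpx4 and Srxn1 were higher without overlap (2 of 41, beside 5.77% of all genes with that scaling).

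Between the irradiated groups, IRR_6w against IRR_1d, 0 of 41 members were called by edgeR, beside 0.0374% of all genes (0.0312% higher and 0.00624% lower), and the other 3 fits also called 0. At an unadjusted p under 0.05 there were 2 of 41, Ftl1 and Txnrd1, both higher at 6 weeks, beside 5.79% of all genes (4.20% higher and 1.60% lower); DESeq2 on all libraries and limma-voom gave 2 each (beside 4.33% and 7.29% of all genes) and DESeq2 on the 2 groups alone 3 (beside 5.87%). By edgeR it was 4 without IRR_1d replicate 3 (beside 5.19%), 5 without IRR_6w replicate 2 (beside 7.89%) and 5 with library totals (beside 8.62%). Their log2 fold changes were 0.90 (SE 0.264, 95% interval 0.34 to 1.47, edgeR adjusted p = 0.518) for Ftl1 and 0.67 (SE 0.233, 95% interval 0.17 to 1.17, edgeR adjusted p = 0.668) for Txnrd1. For Ftl1 the adjusted p was 0.0652 by DESeq2 on all libraries and 0.0228 by DESeq2 on the 2 groups alone, with a fold under the limit of 2. Ftl1, Txnrd1 and Hmox1 had every IRR_6w value above every IRR_1d value (3 of 41, 7.32%, beside 5.47% of all genes), and Mt2 and Fth1 had every IRR_6w value below (2 of 41, beside 3.84%). With library totals Gclc, Gsr and Nfe2l2 were also higher without overlap, and Fth1 overlapped (6 higher and 1 lower of 41, beside 10.7% and 1.12% of all genes with that scaling). The macrophage and monocyte markers given above also differed without overlap between IRR_1d and IRR_6w, and their part was not tested. For Txnrd1 the highest values were those of IRR_6w replicates 3 and 4, with many genes at 0 counts, and with these and Control_1d replicate 1 left out the log2 fold change was 0.318. Gsta4 had -0.62 (SE 0.316, edgeR adjusted p = 0.906) and Fth1 -0.64 (SE 0.382, edgeR adjusted p = 0.995). The median over members was -0.195, against -0.018 over all genes, and library totals in place of TMM moved the median of all genes by 0.318 and changed the sign of 13 members, so that 27 of 41 lay above 0, beside 71.3% of all genes. This comparison uses the same irradiated libraries as the comparisons with controls and is not separate support for them.

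Whether the irradiation effect itself differed between 1 day and 6 weeks was tested as an interaction. Of the 41 members 0 were called by edgeR, beside 0.00% of all genes, and DESeq2 on all libraries and limma-voom also called 0. At an unadjusted p under 0.05 there were 2 of 41 by edgeR, beside 3.14% of all genes (2.13% higher and 1.01% lower), 2 by DESeq2 (beside 2.71%) and 1 by limma-voom (beside 6.29%). With single libraries left out edgeR gave 1 to 4, the highest without Control_1d replicate 3 (beside 5.65% of all genes). The 2 by edgeR were Gclm, with a change of 1.24 (SE 0.397, 95% interval 0.39 to 2.09, edgeR adjusted p = 0.99) on the log2 scale, and Txnrd1, with 0.73 (SE 0.325, 95% interval 0.035 to 1.42, edgeR adjusted p = 0.99). For Gclm the lower mean at 1 day and the higher mean at 6 weeks both entered this value. It stayed between 1.07 and 1.45 over the alternatives. Between the times, the log2 fold change of Gclm was -0.77 in the controls (Control_6w against Control_1d) and 0.46 in the irradiated groups (IRR_6w against IRR_1d). The larger part of the value thus lay in the controls. For Txnrd1 the change of the irradiation effect ran from 0.334 to 0.935.

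Neighbouring genes of the same pathways were counted from 11 lists holding 184 genes, of which 160 were tested. At 1 day 2 of 160 were called, both higher (beside 0.0249% of all genes in either direction). Ephx1, the microsomal epoxide hydrolase and an NRF2 target, was at 36.4, 26.0 and 41.8 CPM in Control_1d and 210.1, 148 and 244 CPM in IRR_1d, which edgeR fitted as 2.53 (SE 0.377, edgeR adjusted p = 0.0349) on the log2 scale. Sesn2, a p53 target of the sestrin family of stress-response proteins, was at 2.13, 3.73 and 7.32 CPM in Control_1d and 40.6, 30.6 and 46.7 CPM in IRR_1d, with a log2 value of 3.16 (SE 0.428, edgeR adjusted p = 0.0235). For both genes every irradiated value lay above every control value. No gene at all was called at 1 day with Control_1d replicate 1 or Control_1d replicate 2 left out, or by limma-voom. At 6 weeks 1 of 160 was called, higher (beside 0.256% of all genes in either direction). This was Cybb, the catalytic subunit of the phagocyte NADPH oxidase, which makes superoxide. It was at 34.0, 21.4, 15.4 and 26.5 CPM in Control_6w and 51.6, 74.4, 150 and 172 CPM in IRR_6w, with a log2 value of 2.21 (SE 0.394, edgeR adjusted p = 0.04). The highest values were those of IRR_6w replicates 3 and 4, the libraries with many genes at 0 counts and low levels of short genes. No gene was called at 6 weeks without Control_6w replicate 1, Control_6w replicate 2, IRR_6w replicate 3 or IRR_6w replicate 4. Phagocytes express Cybb, and the macrophage and monocyte markers and the fibroblast markers given above also differed without overlap at 6 weeks; their part was not tested.

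The other lists had no called gene, and the gene with the smallest p in the 2 irradiation comparisons is given for each by its log2 fold change, all of them from the 6-week comparison. Among 12 NRF2 regulators and partners, Mafk, a small MAF partner of NRF2, had 0.74 (SE 0.298, edgeR adjusted p = 0.461). Among 17 genes of NADPH supply, Nadk, the NAD kinase, had 0.60 (SE 0.286, edgeR adjusted p = 0.579). Pxdn, a peroxidase of the extracellular matrix, had 1.19 (SE 0.246, edgeR adjusted p = 0.061) at 6 weeks and -0.75 (SE 0.282, edgeR adjusted p = 1) at 1 day. Atp7a, a copper exporter, had 1.28 (SE 0.333, edgeR adjusted p = 0.139), Cndp2, a dipeptidase in glutathione turnover, had 1.10 (SE 0.293, edgeR adjusted p = 0.151), and Heph, a ferroxidase, had 1.23 (SE 0.439, edgeR adjusted p = 0.369). Of these genes Mafk, Pxdn and Cndp2 had their highest levels in IRR_6w replicates 3 and 4 and Atp7a in replicate 4. These are libraries with many genes at 0 counts. Nadk and Heph were highest in IRR_6w replicate 1, the library with the highest white fat markers. The part of those libraries was not tested. On the side of lower levels, Gstk1, a mitochondrial and peroxisomal transferase, had -0.66 (SE 0.306, edgeR adjusted p = 0.567), and Secisbp2, which is needed to insert selenocysteine into proteins such as the glutathione peroxidases, had -0.80 (SE 0.284, edgeR adjusted p = 0.369); both had their lowest levels in IRR_6w replicates 3 and 4. At an unadjusted p under 0.05, 17 of the 160 genes were higher and 3 lower at 6 weeks, beside 5.43% higher and 3.37% lower of all genes. The macrophage and monocyte markers and the fibroblast markers given above also separated Control_6w from IRR_6w, and their part in these counts was not tested. At 1 day the counts were 6 and 2, beside 1.94% and 0.960%.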

How the data were processed

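Total RNA of 14 hearts was sequenced as paired reads of 150 bases. Per the methods and the submitters' processing notes, the authors checked reads with FastQC (0.11.8), trimmed them with Trim Galore (0.6.1), aligned them to mm10 with STAR (2.5.0a) and counted them per gene with HTSeq; the strand setting is not given in the sources used here. The deposited values were raw counts of 54532 genes in 1 table, with a gene length for each. Counts were used as deposited, without recounting.

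Genes were kept by edgeR's filterByExpr (16034), scaled by TMM and fitted with the quasi-likelihood test (edgeR 4.0.16, R 4.3.3) in 1 model of the 4 groups. Calls needed a fold over 2, or under 0.5, with the adjusted p (Benjamini-Hochberg, whole table) under 0.05. Every p given with a fold change is from this fit unless DESeq2 or limma is named. CPM and FPKM were computed from the counts. Alternatives were DESeq2 (1.42.0) on all libraries and on 2 groups alone, limma-voom (3.58.1), other scalings, no filter, each library left out, sets of libraries left out, and the replicate number as a block. DESeq2 gave a p for 39 members in the fit on all libraries and for 39 to 41 in the fits of 2 groups. The statistical steps were tested on simulated data.

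The members and the lists of further genes and markers were chosen with earlier results of these data known. Values in every library are given for the 4 members with the smallest p in each group comparison, the 2 with the smallest p in the interaction and the 3 with the highest median FPKM. From each further list the called genes are named, or otherwise the gene with the smallest p in the irradiation comparisons. Hmox1, Gpx3, Mt2, Prdx6, Sod1, Gstm1, Nqo1, Txnip and catalase, and the other members whose fold changes are given, were picked for the text after their values were seen. No replicate pair of the same group (18 pairs) was alike within sampling noise. Promoter windows came from RefSeq on GRCm38.p6, the assembly behind mm10. Of the gene IDs, 54409 were in GENCODE M21, 98.3% of them at the same coordinates. Sod3, Gclc, Hmox1, Prdx6, Gsta4 and Gsr had no promoter entry.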

Additional observations from a re-analysis of the deposited data

Results flagged for a closer look

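A library was set apart where its gap to the nearest of the other 3, divided by the range of its group, exceeded Dixon's 95% critical value for 4 samples. Chance alone sets apart about 1 group in 20. Over the 41 members and both 6-week groups, 82 groups were examined and 5 exceeded it, 3 of them in Control_6w replicate 3 and 2 in IRR_6w replicate 1. In Control_6w replicate 3, Slc7a11 was at 45.46 CPM, Gclc at 37.43 CPM and Sod3 at 86.36 CPM. In IRR_6w replicate 1, Gpx3 was at 1820 CPM and Txnip at 591.3 CPM. Control_6w replicate 3 also held thymus markers at 2750 CPM and the lowest sum of cardiomyocyte markers (6356 CPM). IRR_6w replicate 1 also held the highest sums of markers of white fat (2196 CPM), atrium (2841 CPM) and erythroid cells (63080 CPM). The part of these markers in the 5 values was not tested.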

How the results depend on the processing

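No member was called in any comparison with any library left out (0 to 0 in all 5), with the sets of 3 libraries left out, under other scalings, without the filter, by limma-voom or by DESeq2 on all libraries. DESeq2 on Control_6w and IRR_6w alone called 1 member, Hmox1, at a log2 fold change of 1.45; the cause was not tested. Over 31 pairs of a member and a comparison, which are only a part of all pairs, 27 kept their sign in all alternatives. Library totals in place of TMM factors changed the sign of 1 of all 41 members at 1 day and 11 at 6 weeks. They changed 6 between the controls, 13 between the irradiated groups and 6 in the interaction. Of the 31 pairs, 4 did not keep their sign in all alternatives, each of them at 6 weeks. Gpx3 ran from -0.068 (without IRR_6w replicate 1) to 1.40 with single libraries left out. Gstm1 was 0.021 with library totals and ran from -0.697 to 0.058 with single libraries left out. With Control_1d replicate 1 and IRR_6w replicates 3 and 4 left out together, a choice made after the data were seen, Gstm1 was 0.46, Sod1 0.368 and Nqo1 -0.494. The causes of these turns were not tested. Replicate numbers are shared between groups, but same-numbered libraries did not deviate together (correlations from -0.387 to 0.461), so the numbers were not read as pairs. With the replicate number as a block, 0 members were called in each comparison, and genes called over the whole table went from 4 to 0 at 1 day and from 41 to 7 at 6 weeks. The whole-table count at 6 weeks was 344 with DESeq2 on all libraries, 358 with DESeq2 on the 2 groups and 138 without the filter. It was 83 with library totals, 18 with limma-voom and 180 without the 3 libraries highest in white fat markers. Without the 3 with many genes at 0 counts it was 0, and with single libraries left out it was 0 to 98. At 1 day these counts, in the same order, were 33, 59, 8, 2, 0, 3, 0 and 0 to 11. With 3 or 4 mice a group, the intervals of most members did not exclude a 2-fold change, and members with few counts (Slc7a11, Mt2) carried the widest.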
